A study of Mus musculus with 104 samples.

Results

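The cerebral cortex of BAC-CAG mice was compared with that of wild-type (WT) mice at 6 months of age. These were the 16 cortex libraries of the 6 month cohort, 8 BAC-CAG and 8 WT, out of 104 libraries in the series, and they were chosen by tissue, age and genotype in the labels. BAC-CAG mice carry the human HTT gene with an expanded CAG repeat on a bacterial artificial chromosome (BAC), and the WT mice were their littermates without it. All animals were on the FvB background, and both genotypes were perfused with saline before the cortex was dissected and frozen. Each group held 4 females and 4 males, each library came from its own animal, and the striatum of the same 16 animals was sequenced too. RNA was measured as counts of sequencing reads per mouse gene, given below as CPM, counts scaled to the size of each library.

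Huntingtin, the protein made from HTT, is a large scaffold protein found in neurons throughout the brain. An expanded CAG repeat in the gene causes Huntington's disease, in which projection neurons of the striatum are lost first and the cortical neurons that project to them are also affected. A BAC transgene carries flanking DNA along with the gene of interest, so neighbouring genes can be present in extra copies.

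The libraries held between 25.8 and 38.5 M counts. The mean was 32.9 M (SD 2.62, n = 8) in BAC-CAG and 31.7 M (SD 3.78, n = 8) in WT mice. Markers of cortical excitatory neurons, 12 genes in all, summed to between 8710 and 10332 CPM in BAC-CAG and between 8723 and 10263 CPM in WT libraries, whereas 19 markers of striatal projection neurons summed to between 437 and 744 CPM and between 523 and 684 CPM. The defining cortical gene Slc17a7, the vesicular glutamate transporter of cortical neurons, was at 1280 CPM in BAC-CAG and 1263 CPM in WT mice on average. It was picked outside the rule for named genes given below. Of the 12 cortical excitatory markers, 9 had a negative and 3 a positive log2 change (BAC-CAG against WT), with a median of -0.067. The first principal component, with 21.4% of the variance, separated the sexes. All females lay between -31.8 and -2.8 and all males between 2.1 and 22.1. BAC-CAG replicate 8 was the lowest female at -31.8, with WT replicate 7 next at -23.6. On the second, with 15.1%, BAC-CAG replicate 1 (32.1) and WT replicate 2 (28) lay apart from all others, which reached at most 3.7. The first number of the animal tag was 1 to 3 for 3 BAC-CAG and 5 WT animals and 14 to 19 for 5 BAC-CAG and 3 WT animals, and the labels do not say what it stands for.

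Of 17563 tested genes, 2 differed between the genotypes at an adjusted p under 0.05 (edgeR quasi-likelihood test, Benjamini-Hochberg), which is 0.0114% of the genes. Msantd1 rose and Chrnb3 fell, each 0.00569% of the tested genes. They were also the 2 genes whose CPM ranges did not overlap between the groups (0.0114%), 1 higher and 1 lower (0.00569% each). The 16 libraries can be split in 12870 ways, so among 17563 genes a few such separations can arise with no difference. The lack of overlap is therefore a description and adds no support to the calls. The next smallest adjusted p was 0.9998.

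**Figure D1:**
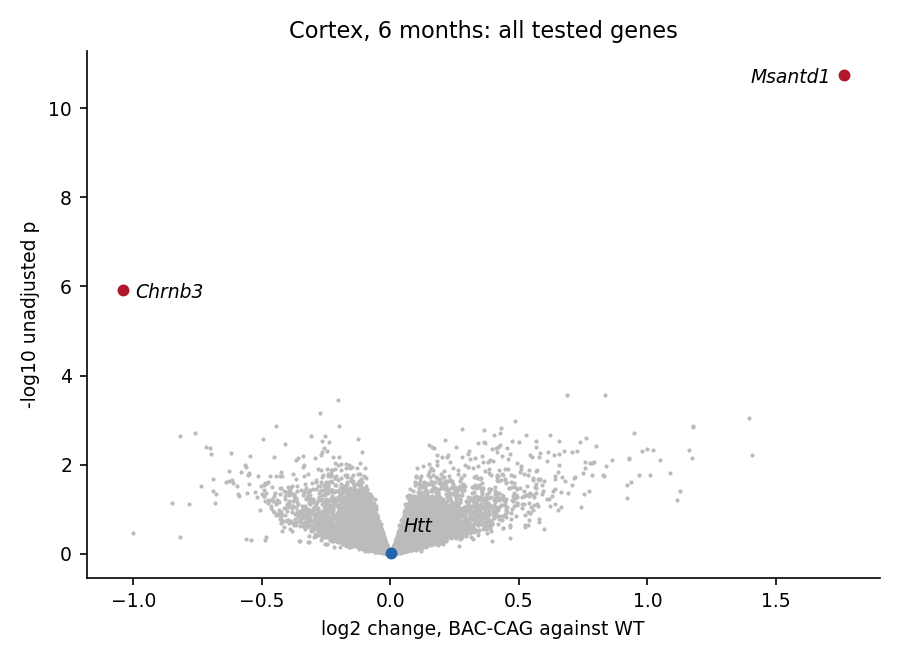
Log2 change (x axis, BAC-CAG against WT) and -log10 of the unadjusted p (y axis) for the 17563 tested genes in cortex at 6 months. Msantd1 at 1.76 and Chrnb3 at -1.04, in red, passed the test over all genes, and Htt, in blue, lay at 0.00.

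Msantd1, which encodes a protein named for its Myb/SANT-like DNA-binding domain, is the neighbour of Htt on chromosome 5 of the mouse. In GRCm38 it spans 34908012 to 34923839 on the plus strand, and Htt, on the same strand, spans 34761740 to 34912534. The annotated spans share 4523 bases, but 0 of the 2905 exonic bases of Msantd1 lie in an exon of Htt. The RefSeq transcript starts at 34915915, which is 3381 bases past the end of Htt. The 250 bases before that start, chr5:34915665-34915914 (GRCm38.p6, plus strand), are shown because Msantd1 is the called gene of this locus. They lie in no exon of either gene.
Msantd1 upstream: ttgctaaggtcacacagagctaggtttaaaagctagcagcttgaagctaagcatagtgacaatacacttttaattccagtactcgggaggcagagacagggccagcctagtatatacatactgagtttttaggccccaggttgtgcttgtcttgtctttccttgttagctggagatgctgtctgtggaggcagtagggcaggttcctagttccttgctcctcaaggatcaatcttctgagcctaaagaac
The window holds none of 3 promoter motifs searched on both strands, which do not overlap one another: TATAAA is found in 13%, CCAAT in 34.5% and GGGCGG in 32.9% of 27025 windows of the same length before RefSeq gene starts. This says only that these letters are absent from the window.

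In WT mice Msantd1 was at 1.59, 1.30, 1.51, 1.44, 2.13, 1.25, 1.78 and 2.04 CPM in replicates 1 to 8. In BAC-CAG mice it was at 5.19, 4.76, 5.51, 6.08, 6.00, 5.86, 7.01 and 4.35 CPM. The lowest BAC-CAG library was thus above the highest WT library. These levels rest on 36 to 69 counts per WT library and 139 to 219 counts per BAC-CAG library. The means were 5.59 ± 0.836 CPM in BAC-CAG and 1.63 ± 0.327 CPM in WT mice (SD, n = 8 each), a ratio of 3.43. The log2 change was 1.76 (SE 0.12), with an adjusted p of 3.1e-07 from edgeR. An exact two-sided permutation test of the CPM gave 0.000155, the smallest p that 8 against 8 libraries allow. Any gene whose groups do not overlap has this p, and it is not adjusted for the number of tested genes. Females were at 5.64 against 1.68 CPM and males at 5.55 against 1.58 CPM. The submitters' notes name a mouse reference alone, and the reads counted for Msantd1 and Htt cannot be assigned to a mouse or a human copy.

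Htt itself did not differ detectably in these counts. It was at 233 ± 11.6 CPM in BAC-CAG and 233 ± 11.7 CPM in WT mice (SD, n = 8 each). The lowest, median and highest libraries were at 222, 229 and 258 CPM in BAC-CAG and at 215, 234 and 253 CPM in WT mice, and the groups overlapped. The log2 change was 0.00 (SE 0.04), with a 95% interval from -0.08 to 0.09, and the exact permutation p was 0.941. Among tags 1 to 3 the means of Htt were 228 CPM in BAC-CAG (n = 3) and 240 CPM in WT mice (n = 5). Among tags 14 to 19 they were in the other order, at 236 CPM (n = 5) and 221 CPM (n = 3). The difference between the tag ranges was not tested. Of 14 genes at the HTT locus on the fixed list, 13 were tested and 1 was called, Msantd1. The median log2 change of the 13 was 0.00, the same as over all tested genes. Grk4, a receptor kinase, had a log2 change of -0.14 (SE 0.09). Rgs12, a regulator of G-protein signalling, was at 0.05 (SE 0.10). Zfyve28, an endosomal protein, was at -0.13 (SE 0.06), with an unadjusted p of 0.0474.

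**Figure D2:**
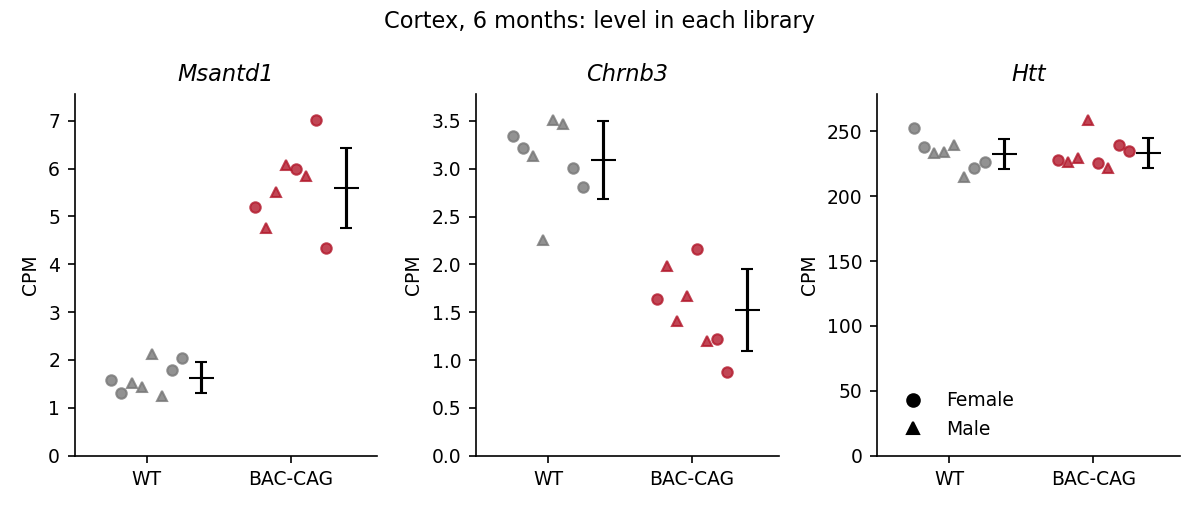
CPM (y axis, from 0) of Msantd1, Chrnb3 and Htt in each cortex library at 6 months, WT in grey and BAC-CAG in red, circles for females and triangles for males; black bars are mean ± SD of 8 libraries. The groups do not overlap for Msantd1 and Chrnb3 and overlap for Htt.

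Chrnb3 encodes the beta3 subunit of nicotinic acetylcholine receptors, ligand-gated cation channels built of several subunits; beta3 is an accessory subunit that often joins receptors with the alpha6 subunit. It spans 27368711 to 27399730 on the plus strand of chromosome 8 and is overlapped by 0 other annotated genes. Chrna6, the alpha6 gene, lies 3481 bases away. In WT mice Chrnb3 was at 3.35, 3.22, 3.13, 2.26, 3.51, 3.47, 3.01 and 2.81 CPM in replicates 1 to 8. In BAC-CAG mice it was at 1.64, 1.99, 1.41, 1.67, 2.16, 1.20, 1.22 and 0.88 CPM. The highest BAC-CAG library was just below the lowest WT library. The counts behind these levels were 58 to 133 per WT library and 33 to 74 per BAC-CAG library.

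The mean of Chrnb3 was 1.52 ± 0.428 CPM in BAC-CAG and 3.09 ± 0.410 CPM in WT mice (SD, n = 8 each), a ratio of 0.492. The log2 change was -1.04 (SE 0.15), with an adjusted p of 0.0104 from edgeR. The exact two-sided permutation p was 0.000155, again that of any groups without overlap and not adjusted for the number of tested genes. In bulk tissue, fewer cells that express a gene and less of its RNA per cell cannot be told apart. Females were at 1.48 against 3.10 CPM and males at 1.57 against 3.09 CPM. Among animals with tags 1 to 3 the means were 1.68 CPM (n = 3) against 3.09 CPM (n = 5), and among those with tags 14 to 19 they were 1.43 CPM (n = 5) against 3.10 CPM (n = 3). The call was lost when BAC-CAG replicates 7 and 8 were both left out, where the log2 change was -0.878 and the adjusted p from edgeR 0.0659. That fit was chosen after seeing the data, held fewer libraries and left out the lowest Chrnb3 value, so a smaller change was built in. Replicates 7 and 8, at 1.22 and 0.88 CPM of Chrnb3, were the highest in summed striatal and meningeal markers respectively. The part of those markers in the result was not tested.

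Of 16 nicotinic receptor subunits, 9 passed the low-count filter and Chrnb3 was the 1 called. The median log2 change of the 9 was -0.03. Chrna6 was at 0.370 CPM in BAC-CAG and 0.412 CPM in WT mice (log2 change -0.18, SE 0.23), with a 95% interval from -0.67 to 0.31. The subunits of the main cortical receptors had smaller standard errors. Chrna4 had a log2 change of -0.03 (SE 0.08), Chrnb2 of -0.02 (SE 0.05) and Chrna7 of -0.02 (SE 0.06). Among 16 tested genes of acetylcholine signalling, 0 were called. Bche, a cholinesterase, was at -0.41 (SE 0.12), Ly6h, a protein that binds nicotinic receptors, at 0.17 (SE 0.07), and Slc5a7, the choline transporter, at 0.38 (SE 0.17), each with an unadjusted p under 0.05 and an adjusted p of 0.9998 from edgeR.

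Across the remaining genes the groups lay close together. At an unadjusted p under 0.05 there were 635 genes (3.62%), 349 with a positive (1.99%) and 286 with a negative log2 change (1.63%), where 878 would be expected with no difference at all. That count depended on the fit. It was 370 with the tag number as a block, 861 with limma-voom and 942 with a surrogate variable. A count under 878 is therefore not in itself a measure of how alike the genotypes were. The median log2 change over all genes was 0.00, and 50.1% of them were positive. The 95% interval of the log2 change lay within ±0.5 for 14828 genes (84.4%) and within ±1 for 17323 (98.6%). Of the 10101 genes that averaged 10 CPM or more, it lay within ±0.5 for 10000 (99.0%). The median SE was 0.056 for those genes and 0.22 for the 2314 genes under 1 CPM, so changes of low genes were measured less precisely.

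The genes next in rank are given as values, since their adjusted p from edgeR was 0.9998 in each case. Itga11, a collagen-binding integrin subunit, ranged from 3.51 to 8.45 CPM in BAC-CAG and from 2.22 to 4.00 CPM in WT mice (log2 change 0.69, SE 0.15). The highest library was BAC-CAG replicate 8, and without it the log2 change was 0.55. Hspb8, a small heat shock protein that works with the co-chaperone Bag3, ranged from 3.43 to 5.73 and from 2.57 to 4.30 CPM (0.48, SE 0.13). All 8 BAC-CAG libraries were above the WT median for both genes, yet the groups overlapped. Other positive changes were 0.43 (SE 0.12) for Pdlim1, an actin-associated adaptor, 0.28 (SE 0.08) for Col9a2, a collagen chain, 0.36 (SE 0.10) for Fxyd6, a regulator of the sodium pump, 0.43 (SE 0.12) for Sema3d, a secreted guidance cue, and 0.62 (SE 0.17) for Itgbl1.

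On the negative side, Hpca, the neuronal calcium sensor hippocalcin, ranged from 367 to 492 CPM in BAC-CAG and from 455 to 533 CPM in WT mice (log2 change -0.20, SE 0.05). Gpr26, an orphan G-protein-coupled receptor, ranged from 313 to 333 and from 321 to 388 CPM (-0.13, SE 0.04). Zfp945, a zinc finger protein, ranged from 21.4 to 28.3 and from 23.9 to 34.8 CPM (-0.27, SE 0.07). All 8 BAC-CAG libraries were below the WT median for these 3 genes, and again the groups overlapped. Myo5c, an unconventional myosin, was at -0.44 (SE 0.12), Fst, the activin-binding follistatin, at -0.31 (SE 0.09), Wnt9a, a secreted Wnt ligand, at -0.25 (SE 0.07), and Trim43a at -0.50 (SE 0.14). Zfp945 and Trim43a belong to families with closely related copies, between which the counting could have split reads.

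Predicted genes aside, and among genes that averaged 1 CPM or more, the largest changes at an unadjusted p under 0.05 after Msantd1 and Chrnb3 were in genes of low level that varied widely between animals. Esr1, the oestrogen receptor alpha, had a log2 change of 1.01 (SE 0.38), but its level was 4.54 CPM in BAC-CAG replicate 1 and 7.25 CPM in replicate 8 and at most 1.65 CPM in the other BAC-CAG libraries. Without replicate 8 the log2 change of Esr1 was 0.54. Pappa2, a protease of IGF-binding proteins, was at 1.12 (SE 0.51), at 0.65 without replicate 8, and at -0.09 with the first tag number as a block. H2-Q6, an MHC class I gene with near-identical relatives, was at 1.17 (SE 0.39), and Slc47a1, an organic cation exporter, at 1.05 (SE 0.35). Under the same limit, the largest negative values after Chrnb3 were -0.64 (SE 0.26) for Slc23a3, -0.58 (SE 0.22) for Lgr6, an R-spondin receptor, and -0.55 (SE 0.18) for Adam33, a metalloprotease. Without WT replicate 1, Lgr6 was at -0.35.

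Gene lists are described by counts and medians beside the 50.1% positive genes and the median of 0.00 over all genes. None of the lists below held a called gene. The members of each list were measured in the same 16 libraries. Their shared signs and their counts at an unadjusted p under 0.05 are therefore not those of independent observations. Markers of deep layer neurons, which include the cells that project out of the cortex, were positive in 17 of 19 genes, with a median log2 change of 0.13. Crym, a thyroid hormone-binding protein, was at 0.61 (SE 0.19) and Sulf1, a heparan sulfatase, at 0.40 (SE 0.12). Markers of upper layer neurons were negative in 10 of 12 genes, with a median of -0.11. Rorb, the transcription factor of layer 4, was at -0.18 (SE 0.07), Kcnh5, a potassium channel, at -0.22 (SE 0.08), and Rspo1, a Wnt agonist, at -0.33 (SE 0.14). The summed level of the deep layer list was 389 to 518 CPM in BAC-CAG and 373 to 435 CPM in WT libraries, and that of the upper layer list 1177 to 1534 and 1311 to 1612 CPM, so both overlapped. BAC-CAG replicate 7 was highest in the deep layer list, and without it the median of that list was 0.083. The upper layer median was -0.069 without BAC-CAG replicate 6.

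Interferon response genes, which are switched on by antiviral signalling, were positive in 22 of 28 tested genes, with a median of 0.21. There were 7 of the 28 with a positive change at an unadjusted p under 0.05, beside 1.99% of all genes, among them Oas1a at 0.64 (SE 0.21), Irf1 at 0.23 (SE 0.09), Gbp2 at 0.45 (SE 0.18) and Psmb8 at 0.34 (SE 0.14). The summed level was 243 to 416 CPM in BAC-CAG and 230 to 398 CPM in WT libraries. It moved with the tags, at 258 CPM in BAC-CAG and 244 CPM in WT mice on average among tags 1 to 3 and at 339 and 327 CPM among tags 14 to 19, which hold more BAC-CAG animals. Microglial markers, from the cells that express many of these genes, had a median of 0.01 over 22 genes and their sums overlapped as well, at 517 to 824 and 528 to 855 CPM. BAC-CAG replicate 5 and WT replicate 7 were the highest of their groups in both lists.

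Immediate early genes, transcribed within minutes of neuronal activity, were positive in 18 of 18 genes, with a median of 0.20, and 0 of them had an unadjusted p under 0.05 in edgeR or passed its adjusted threshold. Cyr61 was at 0.42 (SE 0.20), Btg2 at 0.24 (SE 0.13) and Bdnf at 0.13 (SE 0.07). The sum of the list was 1114 to 2499 CPM in BAC-CAG and 1241 to 2196 CPM in WT libraries. BAC-CAG replicates 1 and 8 (1161 and 1114 CPM) and WT replicates 1 to 4 (1292, 1241, 1531 and 1392 CPM) were low, and all other libraries were at 1889 CPM or more. The 18 genes were measured in the same 16 libraries, so their shared sign is not that of independent observations. The low libraries were all 5 animals with tags 1 and 2, of which 4 were WT, and BAC-CAG replicate 8. Among tags 1 to 3 the mean sum was 1822 CPM in BAC-CAG (n = 3) and 1503 CPM in WT mice (n = 5), and among tags 14 to 19 it was in the other order, at 1934 CPM (n = 5) and 2102 CPM (n = 3). The median of the list was 0.105 without BAC-CAG replicate 7, and 0.124 without BAC-CAG replicate 5 or without WT replicate 3.

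Chaperones were positive in 29 of 30 genes, with a median of 0.043, which was 0.027 without WT replicate 4, 0.028 without BAC-CAG replicate 7 and 0.071 without BAC-CAG replicate 8. Apart from Hspb8, Hspa1b, an inducible Hsp70, was at 0.25 (SE 0.11) and Dnajb1, its co-chaperone, at 0.16 (SE 0.08). The proteasome (31 genes, median 0.01) and autophagy and lysosome genes (23 genes, median 0.00) lay at the median of all genes. DNA mismatch repair genes and other modifiers of Huntington's disease were negative in 11 of 14, with a median of -0.02. Msh3, a mismatch repair protein that acts on repeat loops, was at 0.07 (SE 0.07). Myelin genes were negative in 19 of 21, with a median of -0.063. The median was 0.009 without WT replicate 7, the highest library of the list at 3675 CPM, and -0.032 without BAC-CAG replicate 8, the lowest at 1997 CPM. The other lists, among them astrocytes (20 genes, median -0.05), interneurons (22, 0.04), glutamate receptors (24, 0.00), GABA receptors (14, 0.01), potassium channels (36, -0.02), neuropeptides (21, 0.06), circadian clock genes (19, -0.03) and cholesterol synthesis (24, 0.03), had medians between -0.12 for 11 mitochondrially encoded genes of the respiratory chain and 0.19 for the 7 of 17 choroid plexus and ependymal genes that were tested, with 0 called genes. The choroid plexus median was 0.079 without BAC-CAG replicate 8 and 0.092 without WT replicate 1, and the mitochondrial one -0.039 without BAC-CAG replicate 4. The summed mitochondrial list of 13 genes changed order between the tag ranges. Its means were 66096 CPM in BAC-CAG and 58672 CPM in WT mice among tags 1 to 3. Among tags 14 to 19 they were 51906 and 60999 CPM.

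**Figure D3:**
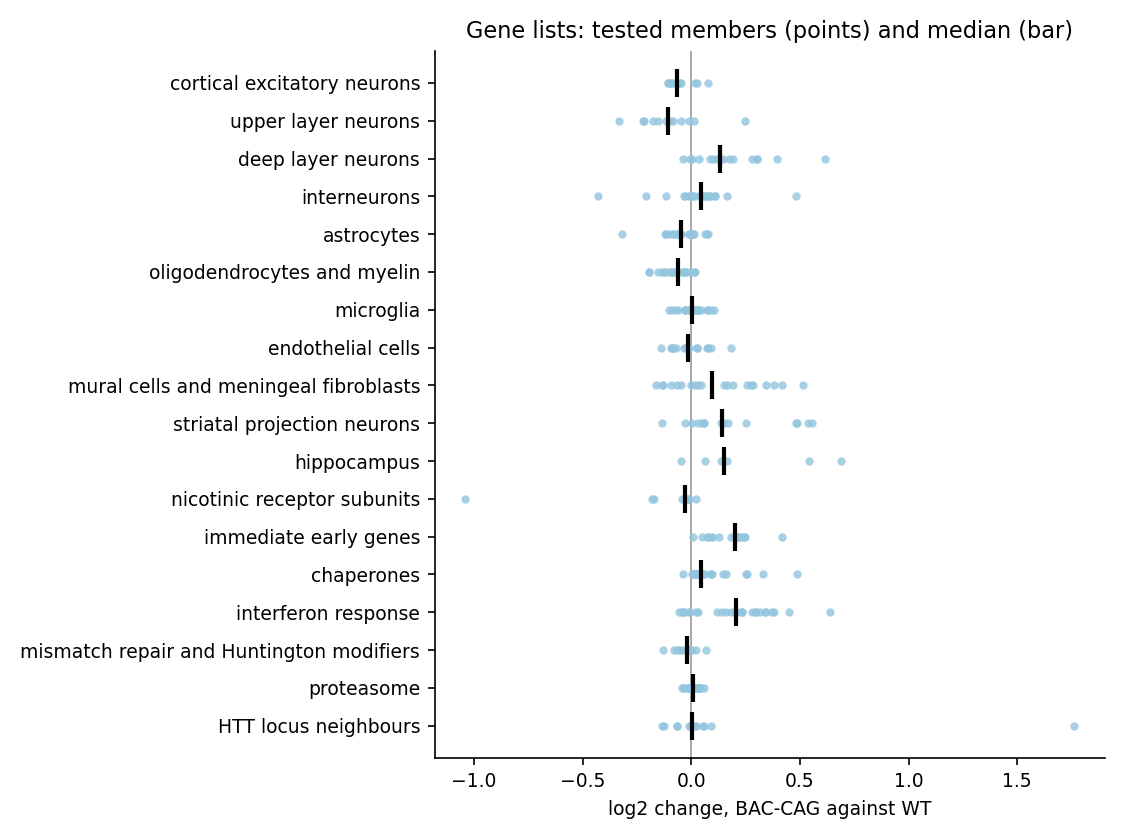
Log2 change (x axis, BAC-CAG against WT) of the tested members of 18 gene lists in cortex at 6 months, one point per gene, with the list median as a black bar. The medians lie between -0.11 and 0.21, and the points farthest out are Msantd1 and Chrnb3.

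Markers of tissue next to the cortex varied between libraries. Striatal markers were positive in 14 of 16 tested genes, with a median of 0.14, and without BAC-CAG replicate 7, the highest library of its group, the median was -0.001. Tac1 was at 0.48 (SE 0.20), and Drd2, the dopamine receptor of one class of striatal neurons, at 0.55 (SE 0.32) from 0.912 and 0.627 CPM. Hippocampal markers were positive in 5 of 6, with a median of 0.149 (0.231 without BAC-CAG replicate 1), and the highest sum was 54.1 CPM in BAC-CAG replicate 8. Mural and meningeal markers had a median of 0.10 over 20 genes, with sums of 339 to 520 CPM in BAC-CAG and 313 to 490 CPM in WT libraries. BAC-CAG replicate 8 had the highest sum, and without it the median was -0.004; it was 0.051 without WT replicate 2 and 0.163 without WT replicate 7. Blood genes were near 0, at most 1.74 CPM summed over 5 genes. The part of these markers in the small differences between layer lists was not tested.

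**Figure D4:**
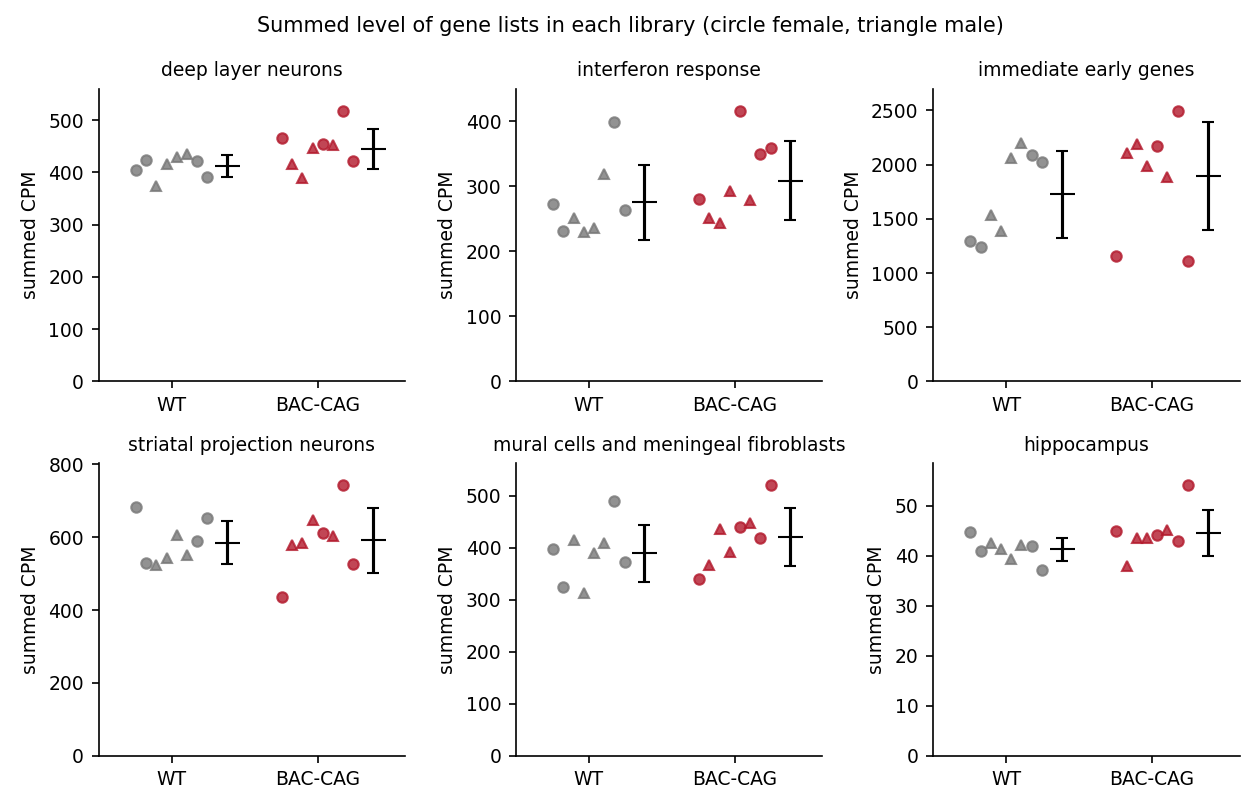
Summed CPM (y axis, from 0) of 6 gene lists in each cortex library at 6 months, WT in grey and BAC-CAG in red, circles for females and triangles for males; black bars are mean ± SD of 8 libraries. The groups overlap in every list shown, and BAC-CAG replicate 7 is highest of its group for deep layer, immediate early and striatal genes.

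Whether the genotype effect at 6 months differed from that at other ages, in striatum or between the sexes was tested directly. In edgeR 0 genes were called in any of the 4 tests. Against 2 months, 1064 of 18472 genes had an unadjusted p under 0.05 (5.76%), against 12 months 382 of 18496 (2.07%), against striatum 489 of 18662 (2.62%) and between the sexes 1433 of 18259 (7.85%). DESeq2 called 0 genes for both ages, 1 for striatum and 2 between the sexes. For striatum, these edgeR and DESeq2 fits treated the 2 tissues of an animal as independent. With the animal as a block, edgeR called 0 genes (smallest adjusted p 0.119), with 1013 at an unadjusted p under 0.05. The gene that DESeq2 called against striatum was Pkp2, a desmosomal plakophilin. Without pairing, its difference was 1.29 (SE 0.25), with an adjusted p of 0.247 from edgeR and 0.00524 from DESeq2. Pkp2 was at 2.69 against 2.26 CPM in cortex (log2 change 0.27, SE 0.20) and fell in striatum, from 6.10 to 2.97 CPM (log2 change -1.03, SE 0.15, adjusted p 0.0157 from edgeR). The smallest p against 2 months belonged to Pla2g5, a secreted phospholipase, with a difference of 0.77 (SE 0.16), and Sstr4, a somatostatin receptor, with 0.45 (SE 0.11), both at an adjusted p of 0.81 from edgeR.

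Chrnb3 was lower in BAC-CAG than in WT cortex at the other ages too, in other animals, without passing the test there. At 2 months it was at 2.36 ± 0.862 against 3.35 ± 0.598 CPM (SD, n = 6 each; log2 change -0.51, SE 0.17, adjusted p 0.625 from edgeR). At 12 months it was at 1.59 ± 0.443 against 3.2 ± 1.23 CPM (SD, n = 8 each; log2 change -1.003, SE 0.21, adjusted p 0.415 from edgeR). The effect at 6 months minus that at 2 months was -0.54 (SE 0.25, adjusted p 0.852 from edgeR), and minus that at 12 months -0.03 (SE 0.28). In the cortex of BACHD mice, another line with a human HTT BAC, compared with its own WT littermates at 12 months, the log2 change was -1.09 (SE 0.16, adjusted p 0.277 from edgeR). In striatum Chrnb3 did not pass the low-count filter, and the effect in cortex minus that in striatum was -0.29 (SE 0.50). Msantd1 was called in each of these cohorts and in striatum, where its log2 change at 6 months was 2.16 (SE 0.07). Its effect in cortex minus that in striatum was -0.40 (SE 0.14, unadjusted p 0.00798, adjusted p 1 from edgeR). Both differences from striatum, of Chrnb3 and of Msantd1, came from the fit that did not pair the tissues of an animal.

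**Figure D5:**
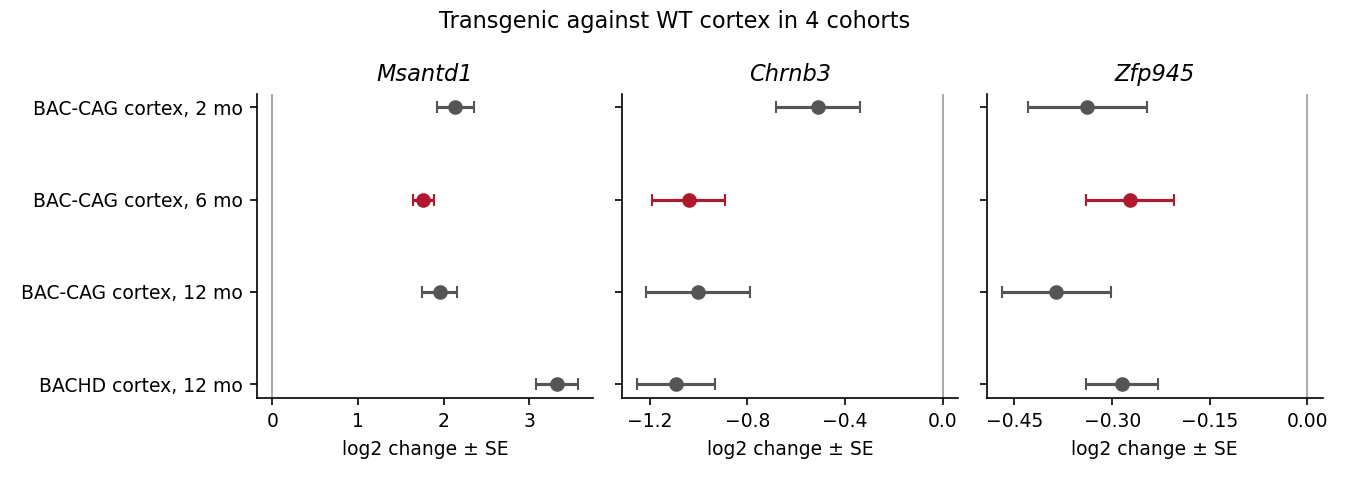
Log2 change ± SE (x axis, transgenic against WT) of Msantd1, Chrnb3 and Zfp945 in cortex of BAC-CAG mice at 2, 6 (red) and 12 months and of BACHD mice at 12 months; each panel has its own scale. Chrnb3 lies at -0.51, -1.04, -1.003 and -1.09 and Zfp945 between -0.39 and -0.27.

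Of 17343 genes tested at all 3 ages, 8 had an unadjusted p under 0.05 with the same sign at each age, 1 higher and 7 lower in BAC-CAG cortex. Besides Msantd1, Chrnb3 and Zfp945 (-0.34, -0.27 and -0.39 at 2, 6 and 12 months) these were Commd10, Zfp40, C7, Fam13a and Adamtsl2, named after their values were seen. C7, a complement component, was at -0.89, -0.61 and -1.01. The cohorts share no animals. Of the 635 genes at an unadjusted p under 0.05 at 6 months, 264 of 627 (42.1%) had the same sign at 2 months and 392 of 624 (62.8%) at 12 months, beside 45.5% and 51.2% of all genes.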

How the data were processed

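Mouse cortex RNA was read as TruSeq Stranded libraries, according to the extract protocol. Whole-number counts per gene were deposited by the authors, made with STAR and HTSeq on GRCm38 (mm10), per the submitters' processing notes; their versions and the strand setting are not given in the sources used here. Of 48795 genes, 48349 were found in GENCODE M21, which gave the coordinates, and the upstream sequence is RefSeq's (GRCm38.p6).

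The 16 libraries were grouped by the genotype in the labels and numbered in accession order within a group. The series text states 3 animals per sex and age, while the labels give 4 at 6 months, and the labels were followed. Replicate pairs differed by more than sampling noise (chi-square per degree of freedom between 4.35 and 45.3 over 56 pairs). The test across genes was that of edgeR 4.0.16 (R 4.3.3): filterByExpr by genotype, TMM factors, sex as covariate, quasi-likelihood F test, two-sided, Benjamini-Hochberg over all tested genes, threshold 0.05. The SE is |log2 change| over the root of F. Differences of effects were tested as contrasts in joint fits. Cortex and striatum of an animal share its tag, and their deviations from the group means correlated at 0.131 to 0.467 (median 0.308, 16 animals). Correlations between different animals were not computed, so these values do not test the pairing, which rests on the tags. The fit was tested on simulated data.

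The comparison, the 38 gene lists and the rule for named genes were chosen with earlier results of these data known. The rule takes called genes and Htt, the 8 smallest p in each direction and the 5 largest changes in each direction at an unadjusted p under 0.05, with a mean of at least 1 CPM and no predicted genes, up to 4 members per list and up to 6 genes per difference of effects. Alternatives were DESeq2 1.42.0, RLE factors, other filters, limma 3.58.1 (voom), edgeR's legacy method, other covariates, a surrogate variable (sva 3.50.0), each sex alone and leaving out each library. The fits by tag range and that without BAC-CAG replicates 7 and 8 were chosen after seeing the data.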

Additional observations from a re-analysis of the deposited data

Results flagged for a closer look

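Among 24 named genes and 17 list sums, 82 groups of 8 libraries were screened for a highest or lowest library far from the others, and 9 had one. About 4.1 would be expected for independent groups of normally distributed values. Most of the genes were named for their values in these libraries, and all groups share them, so the 2 numbers cannot be compared directly. BAC-CAG replicate 8 was far above the rest in Itga11 (8.45 CPM, next 5.70), in Fxyd6 (58.9 CPM, next 43.1) and in the sum of hippocampal markers (54.1 CPM, next 45.2). BAC-CAG replicate 4 was high in Htt (258 CPM, next 239) and BAC-CAG replicate 1 low in Slc23a3 (0.258 CPM, next 0.826). WT replicate 1 was high in Fst (4.73 CPM, next 3.94) and in Lgr6 (11.8 CPM, next 6.39). WT replicate 2 was high in Esr1 (2.24 CPM, next 1.31), and WT replicate 7 in the sum of myelin genes (3670 CPM, next 2890).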

How the results depend on the processing

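Msantd1 and Chrnb3 were the 2 called genes with DESeq2, RLE factors, no low-count filter, a filter at 1 CPM, limma-voom, edgeR's legacy method, no sex covariate, a surrogate variable, the tag number as a block, the tag range as a covariate, a threshold of 0.1, and in each of the 16 fits without 1 library. In those 16 fits Msantd1 lay between 1.707 and 1.835 and Chrnb3 between -1.146 and -0.942. Fits on fewer libraries called 1 gene, Msantd1, in females, in males, in tags 1 to 3 and without BAC-CAG replicates 7 and 8, and 0 genes in tags 14 to 19; edgeR called 1, Msantd1, with the spread shared over all cortex libraries. Chrnb3 was then at -1.075 in females, -1.003 in males, -0.888 in tags 1 to 3, -1.13 in tags 14 to 19, -0.878 without replicates 7 and 8 and -1.036 with shared spread (adjusted p 0.937, 0.726, 0.903, 1, 0.0659 and 0.0648 from edgeR). Msantd1 was at 1.78 in tags 14 to 19 (adjusted p 0.0667). Htt changed sign around 0, at -0.015 with voom, -0.018 in females, -0.067 in tags 1 to 3, -0.006 without replicates 7 and 8, and -0.022 to 0.023 without 1 library. Its mean CPM was lower in BAC-CAG than in WT mice in tags 1 to 3 and higher in tags 14 to 19. Pappa2 was at -0.089 with the tag block and -0.58 in tags 1 to 3. DESeq2 called 1 gene for the tissue difference and 2 for the sex difference, Cd248 and 1700024P16Rik. The cause of these changes was not tested, except that the fits by sex and tag hold fewer libraries. With the animal as a replicate block, which pairs cortex and striatum, 0 genes were called for the tissue difference in edgeR (smallest adjusted p 0.119), with 1013 at an unadjusted p under 0.05 against 489 without it. Leaving out 1 library moved the median of 36 of 37 lists by more than 1.5 times or across 0. The interferon list, from 0.15 to 0.28, was the exception. Such a ratio is easily exceeded where a median lies near 0, as many did. Shifts were also set against the SD of the list's mean level between libraries of a group. By that rule, which needs a shift of 1 SD, 666 list medians from alternative fits were the same and 0 moved. Leaving out 1 library can hardly shift a group mean by 1 SD, so the rule could hardly have found a move. It does not show that the medians are stable. The median SE was 0.22 for genes under 1 CPM and 0.056 for those at 10 CPM or more.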
